A study of Homo sapiens with 40 samples.

Results

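CD274 and PDCD1LG2 encode PD-L1 and PD-L2, the 2 ligands of the inhibitory T-cell receptor PD-1. They were taken from a count table of 62263 genes by their Ensembl identifiers, ENSG00000120217.14 and ENSG00000197646.8, and both were among the 16735 genes with enough counts to be tested. The RNA came from BEAS-2B, an immortalized human bronchial epithelial cell line, in 2 stable lines with constitutive short hairpins: a control hairpin (labelled control) and a hairpin against the RNA-binding protein IGF2BP3 (labelled knockdown). All cells were starved overnight in what the labels call 2% medium and then stayed without cytokine (unstim) or received 100 ng/ml IL-13 and were harvested after 24 h (IL13). Frac-seq sequenced polyadenylated RNA from the whole lysate (input) and from polyribosomes (polysome), the RNA under translation. This gave 8 groups of 5 libraries, 40 in all. Sample titles write siC and siIGF2BP3, whereas the growth protocol describes constitutive hairpin lines, and groups here follow the genotype label. Going by that protocol, each hairpin is represented by 1 line, so hairpin and line cannot be told apart.

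PD-L1 and PD-L2 are membrane proteins of the B7 family. Both bind PD-1 on activated lymphocytes and dampen T-cell signalling. PD-L2 also binds RGMB, a co-receptor for bone morphogenetic proteins. CD274 is best known as a gene induced by interferon through IRF1, and it is made by many cell types including airway epithelium. PDCD1LG2 is more restricted and is known in myeloid cells as a gene induced by the type 2 cytokines IL-4 and IL-13 through STAT6.

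The CD274 promoter is shown because the interferon and STAT routes are thought to act there, and these data compare the gene with and without a STAT-activating cytokine. It is the RefSeq sequence of the 250 bases before the gene's start on the plus strand of GRCh38.p14, chr9:5450292-5450541. Capitals mark the matches to the interferon regulatory factor (IRF) motif, GAAA and GAAA with any 2 bases between, which lie on the minus strand and overlap each other.
CD274: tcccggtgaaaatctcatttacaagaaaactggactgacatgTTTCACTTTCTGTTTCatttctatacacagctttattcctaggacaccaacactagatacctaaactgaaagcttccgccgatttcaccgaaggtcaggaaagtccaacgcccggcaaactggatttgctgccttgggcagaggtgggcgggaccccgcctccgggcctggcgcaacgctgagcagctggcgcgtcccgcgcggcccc
The matches begin 208 and 202 bases before the start. At least 1 match on either strand was found in 3.02% of 35116 promoters of the same length, and 2 or more in 0.225%. The STAT motif TTCNNNGAA matched 1 time, 125 bases before the start, and was found in 6.57% of promoters. The same ends with 4 bases between, TTC and GAA, which STAT6 is known to bind, had 0 matches, against 5.38% of promoters with one. The NF-kB-like motif, GGG and CC with 5 bases between, matched 3 times, with a pair of matches that overlap, and 54.4% of promoters held it. PDCD1LG2 was not among the promoters at hand.

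Input libraries held 14044352 to 40441061 estimated counts and polysome libraries 1816848 to 34082191, with 3 polysome libraries of the knockdown line below 5000000. IGF2BP3, the target of the hairpin, was at 20.7 to 48.8 CPM (counts scaled to library size) in unstimulated control input libraries and at 21.8 to 29.1 CPM in those labelled knockdown. With IL-13 the input ranges were 29.6 to 43.25 and 17.7 to 35.1 CPM. In polysome RNA they were 5.115 to 19.5 against 5.35 to 26.4 CPM unstimulated, and 4.23 to 12.8 against 2.60 to 14.7 CPM with IL-13. Control and knockdown ranges overlapped in each of the 4 settings, so the knockdown is named below as the labels have it. In unstimulated input RNA the overlap came from control replicate 1 alone, at 20.7 CPM. The other control libraries there held 30.7 to 48.8 CPM. Input means were 35.18 (control) against 24.85 CPM (knockdown) unstimulated, and 35.38 against 25.85 CPM with IL-13. Polysome means were 11.19 against 11.22 CPM unstimulated and 10.61 against 9.152 CPM with IL-13. The labels do not say that replicates came from separate cultures, so p-values measure the spread between these libraries, which may be technical.

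The input and polysome libraries numbered 1 of the unstimulated control cells stood apart from all others. The immediate early gene EGR1 was at 1010 CPM in that input library and at no more than 123.8 CPM in the other 19, and the chemokine gene CXCL8 at 132.3 CPM against at most 0.582 CPM. In polysome RNA the same number held 649.4 CPM of EGR1 against at most 53.2 CPM elsewhere. The growth factor gene CCN2 was also high there (1610 and 1692 CPM, against at most 126.9 and 117.7 CPM), as was the cytokine gene IL6 (59.7 and 75.7 CPM, against at most 6.33 and 3.03 CPM). CD274 and, in polysome RNA, PDCD1LG2 were high in these libraries too. Fold changes and group means of the ligands that use unstimulated control cells are therefore given with and without the pair.

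PDCD1LG2 was higher with IL-13 in both lines and both fractions, by 1.55 to 2.14 times in the fitted means, but it was called in no comparison when all 40 libraries were used. In control input RNA its level per library was 9.53, 6.34, 4.33, 3.43 and 6.52 CPM unstimulated and 14.7, 12.65, 7.30, 12.4 and 5.87 CPM with IL-13. In the knockdown line it was 4.79, 6.755, 8.35, 6.05 and 6.18 CPM unstimulated and 7.76, 8.515, 14.6, 13.6 and 11.3 CPM with IL-13. In each line most IL-13 libraries lay above the unstimulated ones, but the ranges overlapped, whereas 0.263% and 0.586% of all genes tested had every IL-13 library above every unstimulated one. The log2 fold change was 0.81 ± 0.35 (SE, n = 5 against 5) in control and 0.80 ± 0.35 (SE, n = 5 against 5) in knockdown cells, with an adjusted p of 1 for both by edgeR's quasi-likelihood test. Of all genes tested, 0.0777% and 0.0837% were called in these comparisons, so few genes of any kind passed.

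In polysome RNA the control line held 19.2, 4.82, 3.88, 4.87 and 4.01 CPM of PDCD1LG2 unstimulated and 15.9, 11.2, 6.21, 15.3 and 8.15 CPM with IL-13. The knockdown line held 8.73, 7.745, 6.34, 6.57 and 6.355 CPM unstimulated and 9.99, 20.3, 12.5, 15.3 and 19.1 CPM with IL-13. Every IL-13 library of the knockdown line lay above every unstimulated one, which 0.335% of all genes tested also showed in this direction. In the control line replicate 1, at 19.2 CPM, lay above all IL-13 libraries, and the other 4 unstimulated libraries lay below all of them. In that line 0.317% of genes had no overlap in this direction. The log2 fold change was 0.63 ± 0.35 (SE, n = 5 against 5; edgeR adjusted p = 1) in control and 1.10 ± 0.36 (SE, n = 5 against 5; edgeR adjusted p = 0.779) in knockdown cells, where 0.125% and 0.0956% of genes were called. An exact two-sided permutation test of log2(CPM + 1) gave p = 0.00794 for the knockdown line, the smallest that 5 against 5 allows, and 0.0952 after adjustment over the gene's 12 comparisons of 2 groups.

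**Figure D1:**
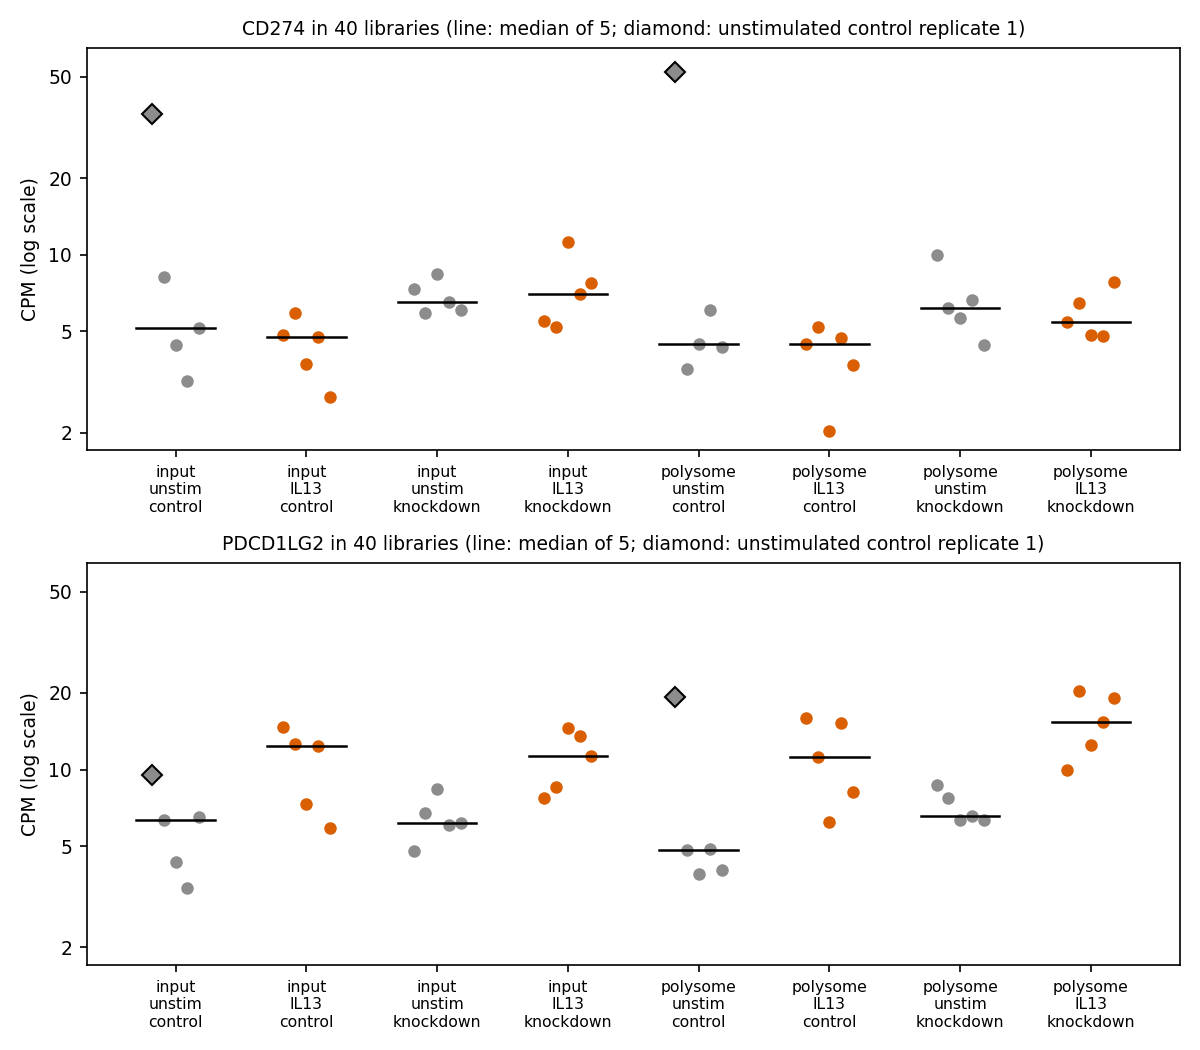
Level of CD274 (top) and PDCD1LG2 (bottom) in each of the 40 libraries, in CPM on a log axis, with grey points for unstimulated and orange points for IL-13 cells and a line at each group's median. PDCD1LG2 medians are higher with IL-13 in all 4 settings (for example 12.4 against 6.34 CPM in control input), the ratio of CD274 medians lies between 0.882 and 1.08, and the diamonds of unstimulated control replicate 1 lie far above the other CD274 values.

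Averaged over both lines, PDCD1LG2 was 1.75 times higher with IL-13 in input RNA (log2 0.80 ± 0.25, SE; 10 libraries against 10) and 1.82 times higher in polysome RNA (log2 0.87 ± 0.25, SE). The 95% intervals of the fold change were 1.23 to 2.47 and 1.28 to 2.605. The edgeR adjusted p-values were 0.547 and 0.285, against a background of 0.149% and 0.209% of genes called. Without the pair numbered 1, the averaged log2 fold changes were 0.92 ± 0.20 (SE) in input and 1.23 ± 0.20 (SE) in polysome RNA, and PDCD1LG2 was called in both (edgeR adjusted p = 0.0257 and 0.000532). Those fits called 0.182% and 0.241% of 16995 genes. The pair was left out with earlier results of these data known. It held the highest PDCD1LG2 level of the unstimulated control libraries in each fraction (9.53 and 19.2 CPM). Leaving it out was therefore bound to raise these fold changes. Over the other fits tried, the adjusted p of PDCD1LG2 ranged from 0.0257 to 0.652 in input and from 0.000532 to 0.996 in polysome RNA. That range does not count fits that left out 1 library at a time. Of those, 0 of 20 called it in input and 1 of 20 in polysome RNA.

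Within the control line, leaving out the pair raised the log2 fold change of PDCD1LG2 to 1.04 ± 0.29 (SE) in input RNA (edgeR adjusted p = 0.611) and to 1.365 ± 0.30 (SE) in polysome RNA, where it was called (edgeR adjusted p = 0.0392; range 0.0392 to 1 over the other fits). Background shares in those fits were 0.0765% and 0.141%. An exact permutation test that exchanged libraries within each line, chosen after the data had been seen, gave p = 0.00198 for input and p = 0.00394 for polysome RNA with all libraries. The same exact permutation test gave p = 0.000819 and p = 9.45e-05 without the pair. For CD274 the exact permutation p-values were 0.36 and 0.171 with all libraries, and 0.697 and 0.344 without the pair. Those p-values were computed for CD274 and PDCD1LG2 in each fraction, 4 tests with and 4 without the pair, and are not adjusted over genes.

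The response of PDCD1LG2 was not found to differ between the lines. The difference of the log2 fold changes, knockdown minus control, was -0.02 in input RNA with a 95% interval of -1.02 to 0.98, and 0.47 in polysome RNA with an interval of -0.56 to 1.49 (edgeR adjusted p = 1 for both). Without the pair it was -0.24 (-1.03 to 0.55) and -0.27 (-1.07 to 0.54), so the sign in polysome RNA turned. These intervals include differences of about the size of the response itself. In these comparisons edgeR called 0% of genes with all libraries. An unadjusted edgeR p under 0.05 was held by 153 and 563 genes, only 0.914% and 3.36% of those tested. The Wald test of DESeq2 called 6 and 25.

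CD274 was not higher with IL-13 in any setting beyond the spread between libraries. In control input RNA it was at 35.7, 8.16, 4.41, 3.2 and 5.17 CPM unstimulated and at 4.83, 5.88, 3.70, 4.76 and 2.76 CPM with IL-13. In polysome RNA of that line it was at 52.4, 3.55, 4.46, 6.04 and 4.35 CPM unstimulated and at 4.44, 5.20, 2.04, 4.71 and 3.69 CPM with IL-13. Replicate 1 held 3.17 times the level of the next highest input library of any group and 5.25 times that of the next highest polysome library, and the other unstimulated libraries overlapped the IL-13 ones. With all libraries the log2 fold change was -1.365 ± 0.55 (SE, n = 5 against 5; edgeR adjusted p = 1) in input and -1.81 ± 0.56 (SE, n = 5 against 5; edgeR adjusted p = 0.374) in polysome RNA. Without the pair it was -0.25 ± 0.29 (SE) and -0.20 ± 0.29 (SE), with 95% intervals of the fold change from 0.560 to 1.26 and from 0.575 to 1.31.

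In the knockdown line, which the pair does not belong to, CD274 input levels were 7.30, 5.92, 8.42, 6.54 and 6.06 CPM unstimulated and 5.48, 5.22, 11.3, 7.035 and 7.705 CPM with IL-13. Polysome levels were 9.98, 6.17, 5.65, 6.615 and 4.40 CPM unstimulated and 5.44, 6.45, 4.83, 4.795 and 7.80 CPM with IL-13. The ranges overlapped in both fractions and neither treatment held all of the high libraries. The log2 fold changes were 0.10 ± 0.54 (SE) and -0.195 ± 0.565 (SE), both with an edgeR adjusted p of 1. Averaged over both lines without the pair, the fold change was 0.949 in input RNA (95% interval 0.718 to 1.25) and 0.872 in polysome RNA (0.654 to 1.16), while with all libraries the log2 values were -0.63 ± 0.38 (SE) and -1.003 ± 0.40 (SE).

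The response of CD274 differed between the lines, knockdown minus control, by log2 1.465 ± 0.77 (SE) in input and 1.615 ± 0.79 (SE) in polysome RNA with all libraries, neither called (edgeR adjusted p = 1 for both). Without the pair the difference was 0.36 ± 0.40 (SE) and 0.01 ± 0.41 (SE), with 0% and 0.00588% of genes called in those fits. The size of the difference thus rested on the libraries numbered 1.

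**Figure D2:**
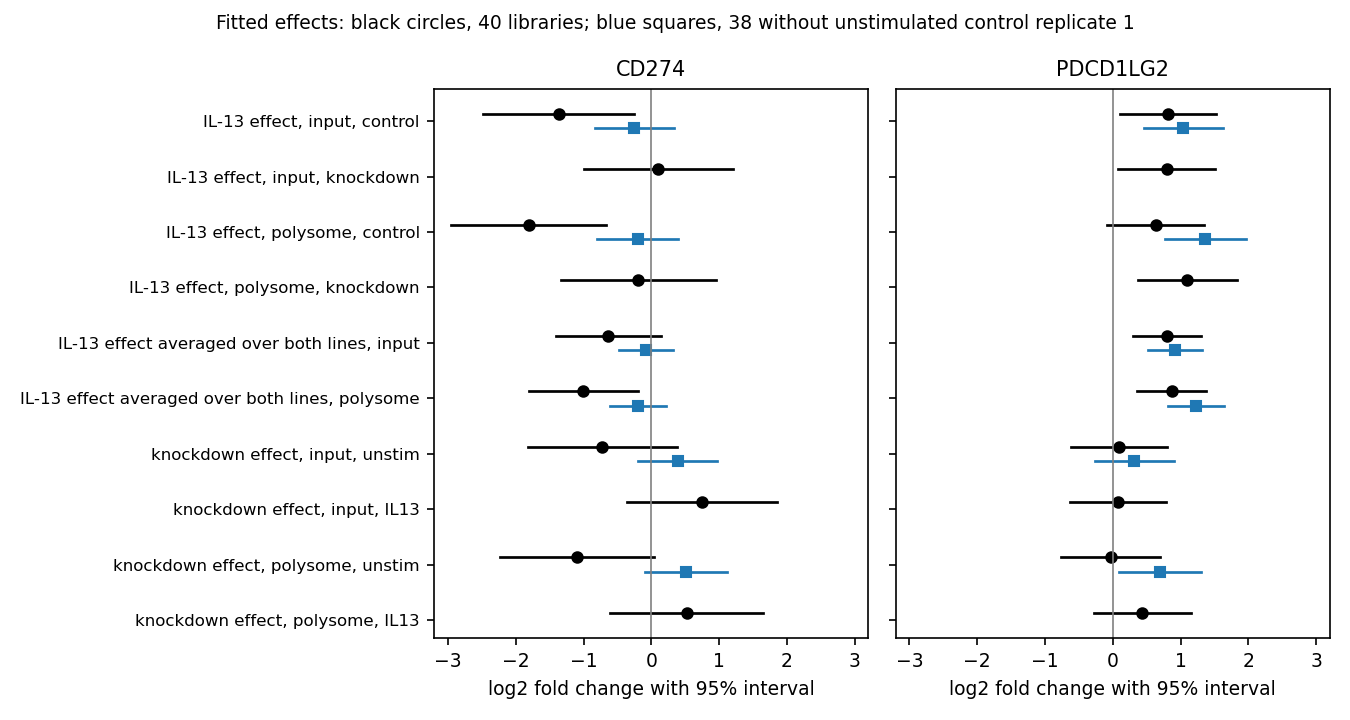
Log2 fold change with its 95% interval for CD274 (left) and PDCD1LG2 (right) in each IL-13 and knockdown comparison, from all 40 libraries (black circles) and from 38 without unstimulated control replicate 1 (blue squares, for comparisons that use it). The PDCD1LG2 estimates lie above 0 in all 6 IL-13 comparisons, although the interval of control polysome RNA with all libraries reaches from -0.08 to 1.35, and CD274 moves from -1.81 to -0.20 in control polysome RNA once that replicate is left out.

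The balance between the ligands was read from TPM, the authors' values corrected for transcript length as well as depth, since levels of different genes compare only per length. Unstimulated control input libraries had a PDCD1LG2 to CD274 ratio of 0.407, 1.195, 1.505, 1.64 and 1.94, and IL-13 libraries of 4.64, 3.30, 3.02, 4.00 and 3.26. In the knockdown line the input ratios were 1.003, 1.75, 1.52, 1.41 and 1.57 unstimulated and 2.165, 2.50, 1.99, 2.96 and 2.27 with IL-13. In both lines the lowest IL-13 ratio was above the highest unstimulated one.

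In polysome RNA the control line had ratios of 0.5575, 2.075, 1.345, 1.23 and 1.42 unstimulated and 5.51, 3.31, 4.69, 4.96 and 3.36 with IL-13. The knockdown line had 1.35, 1.93, 1.72, 1.53 and 2.215 unstimulated and 2.81, 4.85, 3.94, 4.895 and 3.73 with IL-13. Here too no unstimulated library reached an IL-13 library of the same line. PDCD1LG2 was above CD274 per length in 18 of 20 unstimulated and in 20 of 20 IL-13 libraries, and the exceptions were the pair numbered 1. Over all libraries the median ratio was 1.51 unstimulated and 3.335 with IL-13.

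This separation by IL-13 in all 4 settings was also shown by 12 of the 16735 genes tested when each was set over CD274 in the same way, 0.0717% of them, PDCD1LG2 included. In single settings the share was 0.448% (control input), 0.329% (knockdown input), 0.55% (control polysome) and 0.323% (knockdown polysome). The ratio is a description and was not tested. Since the pair held the lowest ratios of its groups, leaving it out changes none of these separations.

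**Figure D3:**
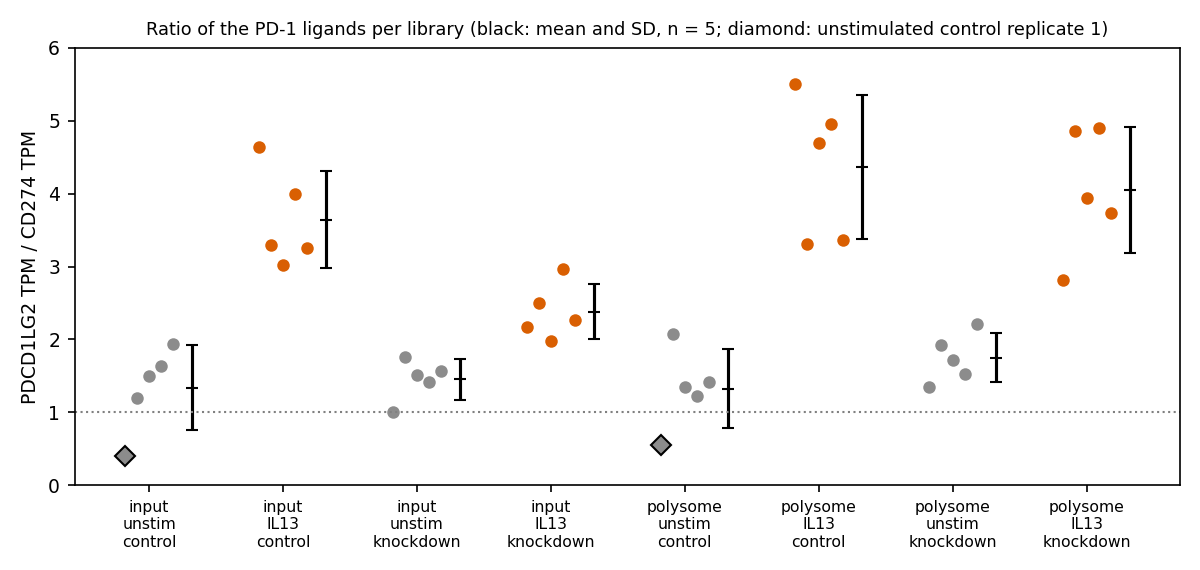
Ratio of PDCD1LG2 TPM to CD274 TPM in each library, by group, with the mean and SD of 5 libraries beside the points and a dotted line at equal levels. IL-13 libraries (orange) span 1.99 to 5.51 and unstimulated ones (grey) 0.407 to 2.215, with no overlap within any line and fraction.

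The hairpin against IGF2BP3 was compared with the control hairpin for both ligands. CD274 was higher in cells labelled knockdown under IL-13, at 7.34 ± 2.43 CPM (SD, n = 5) against 4.39 ± 1.19 (SD, n = 5) in input and 5.86 ± 1.27 (SD, n = 5) against 4.015 ± 1.23 (SD, n = 5) in polysome RNA. The ranges overlapped in both fractions. The log2 differences were 0.74 ± 0.55 (SE; edgeR adjusted p = 1) and 0.52 ± 0.56 (SE; edgeR adjusted p = 0.835), where edgeR called 0% and 0.0896% of genes. In the first, 502 genes (3% of those tested) had an unadjusted p under 0.05 and DESeq2 called 55. Exact two-sided permutation tests gave p = 0.0238 and p = 0.0317, or 0.19 each after adjustment over the gene's 12 comparisons, so the difference was not beyond what that correction requires.

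In unstimulated cells the sign of the CD274 difference depended on the pair numbered 1. With all libraries it was -0.72 ± 0.54 (SE) in input and -1.10 ± 0.56 (SE) in polysome RNA, and without the pair it was 0.39 ± 0.29 (SE) and 0.51 ± 0.30 (SE). None of these passed (edgeR adjusted p = 1, 0.689, 1 and 0.672), and the shares of genes called were 0.012% and 0.0299% with all libraries and 0.0412% in each fraction without the pair. PDCD1LG2 differed between the lines by log2 0.09 ± 0.35 (SE) in unstimulated and 0.08 ± 0.35 (SE) in IL-13 input RNA, and by -0.03 ± 0.36 (SE) and 0.43 ± 0.35 (SE) in polysome RNA. Without the pair the unstimulated values were 0.32 ± 0.28 (SE) and 0.70 ± 0.30 (SE), also not called (edgeR adjusted p = 1 and 0.493).

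Neither ligand was called as differing between polysome and input RNA, in the comparison that called the most genes. Of all genes tested, 40.2% were called in unstimulated control, 39.3% in IL-13 control, 38.5% in unstimulated knockdown and 39.3% in IL-13 knockdown cells. PDCD1LG2 differed, polysome minus input, by log2 0.28 ± 0.35, 0.10 ± 0.35, 0.15 ± 0.36 and 0.46 ± 0.35 (SE) in that order. CD274 differed by 0.31 ± 0.54, -0.13 ± 0.55, -0.06 ± 0.56 and -0.35 ± 0.55 (SE). The smallest edgeR adjusted p of the 8 was 0.323. Without the pair the unstimulated control values turned to -0.23 ± 0.30 (SE) and -0.18 ± 0.31 (SE), neither called, with 37.8% of genes called. Leaving out only the input library of the pair called CD274 higher in polysome RNA (log2 1.42, edgeR adjusted p = 0.0241), and leaving out only the polysome library called it lower (log2 -1.295, edgeR adjusted p = 0.0176). The interval of the IL-13 knockdown value allows PDCD1LG2 a polysome level from 0.839 to 2.25 times its input level.

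The IL-13 effect was not found to shift from input to polysome RNA for either gene. For PDCD1LG2 the change was log2 -0.18 ± 0.50 (SE) in control and 0.30 ± 0.50 (SE) in knockdown cells, and for CD274 -0.45 ± 0.77 (SE) and -0.29 ± 0.78 (SE). Without the pair the control values were 0.33 ± 0.40 (SE) and 0.05 ± 0.41 (SE). The shift of the knockdown effect ranged from -0.37 to 0.36 over both genes and treatments. All 8 had an edgeR adjusted p of at least 0.9999, in comparisons that called 0% of genes, or 0.00598% for the knockdown shift under IL-13. Unadjusted, 219 to 326 genes (1.31% to 1.95% of those tested) had a p under 0.05 in these 4 comparisons, and DESeq2 called 5 to 20. Library levels of the same number went together between the fractions for PDCD1LG2, with Pearson's r of 0.75 over 20 pairs and 0.77 over the 19 left without the pair numbered 1. For CD274 r was 0.81, and 0.37 without that pair. These correlations describe libraries that share treatment and line.

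Over all 20 comparisons edgeR called CD274 0 times and PDCD1LG2 0 times, with an unadjusted p under 0.05 in 4 and 5 of them. DESeq2 also called each 0 times, with an unadjusted p under 0.05 in 4 and 5. Of all genes tested, 0.914% to 47.1% had such an edgeR p, depending on the comparison. The 4 comparisons of CD274 by edgeR all use the pair numbered 1. Without that pair their unadjusted edgeR p ranged from 0.338 to 0.983. The comparisons share libraries, and the averages use the single-line ones again, so these counts are not independent.

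The order of the 8 group means shows how the levels lay. PDCD1LG2 was highest in IL-13 knockdown polysome RNA (15.4 ± 4.34 CPM, SD, n = 5). The other IL-13 groups followed, polysome control at 11.35 ± 4.27, input knockdown at 11.2 ± 3.01 and input control at 10.6 ± 3.79 CPM (SD, n = 5). Below all IL-13 groups came the unstimulated ones, polysome control at 7.36 ± 6.64, polysome knockdown at 7.15 ± 1.06, input knockdown at 6.43 ± 1.29 and input control at 6.03 ± 2.36 CPM (SD, n = 5). Libraries of every neighbouring pair in this order overlapped, and by medians the unstimulated control polysome group came last, at 4.82 CPM. Without the pair the unstimulated control means were 4.395 ± 0.521 CPM in polysome and 5.15 ± 1.52 CPM in input RNA (SD, n = 4), the lowest of the 8.

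For CD274 the means placed polysome and input unstimulated control first, at 14.2 ± 21.4 and 11.3 ± 13.75 CPM (SD, n = 5), both through replicate 1. Without it they were 4.60 ± 1.04 and 5.24 ± 2.11 CPM. The 4 knockdown groups came next, from 7.34 down to 5.86 CPM, and the IL-13 control groups last, at 4.39 ± 1.19 in input and 4.015 ± 1.23 CPM in polysome RNA (SD, n = 5). By medians the knockdown groups held the first 4 places and the control groups the last 4, from 7.035 CPM in IL-13 knockdown input to 4.44 CPM in IL-13 control polysome RNA. Libraries of all neighbouring groups overlapped here as well.

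Both genes were expressed at a modest level. Mean CD274 was 2.53 TPM over the 20 input libraries and 2.37 TPM over the 20 polysome libraries, higher than 38.3% and 43.3% of the genes tested. Mean PDCD1LG2 was 4.35 and 4.91 TPM, higher than 46.3% and 53.9%. With the pair left out, means were 2.01 and 1.64 TPM for CD274 and 4.31 and 4.70 TPM for PDCD1LG2. Estimated counts ran from 9 to 999.5 per library for CD274 and from 13 to 519 for PDCD1LG2, and the lowest of each came from the shallowest library, unstimulated knockdown polysome replicate 5. Between the genes, log2(CPM + 1) had r = 0.33 over the 20 input and r = 0.43 over the 20 polysome libraries, or 0.42 and 0.31 over the 19 of each left without the pair.

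The genes whose levels followed each ligand most closely were ranked over the 20 input libraries, among 13272 genes of at least 1 CPM on average. For PDCD1LG2 they were SUSD6 (r = 0.90), SFRP1 (0.87), LRP12 (0.84), JCAD (0.83) and RASD2 (0.81). Over the polysome libraries their r was 0.51, 0.77, 0.77, 0.81 and 0.78. SFRP1, a secreted Wnt inhibitor, was itself called higher with IL-13 when averaged over both lines (log2 1.335 ± 0.26 in input and 1.38 ± 0.26 in polysome RNA, SE; edgeR adjusted p = 0.00602 and 0.00345). So was RASD2, a small Ras-like GTPase (log2 1.53 ± 0.26 and 1.58 ± 0.26, SE; edgeR adjusted p = 0.000641 and 0.00058). JCAD, a protein of cell junctions, was called in polysome RNA (log2 0.88 ± 0.17, SE; edgeR adjusted p = 0.00619) and stood at 0.72 ± 0.17 (SE) in input (edgeR adjusted p = 0.0537). SUSD6 and LRP12 were not called in either fraction. Libraries share treatment here, so these correlations describe the same groups and no p is given for them. Choosing genes that follow PDCD1LG2 over these libraries also made calls for IL-13 more likely. The calls above, beside 0.149% (input) and 0.209% (polysome) of all genes called, are therefore no independent result.

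For CD274 the closest genes over the same libraries were JUN (r = 0.92), TSC22D1 (0.90), CHST2 (0.90), BCL10 (0.88) and F3 (0.88). JUN is an immediate early transcription factor and F3 is tissue factor, the starter of coagulation. Their highest input level was in replicate 1 of the unstimulated control cells, 255.9 CPM for JUN against at most 73.3 CPM in the other 19 and 225.9 CPM for F3 against at most 62.55 CPM. Without that library r fell to between 0.70 and 0.77 for these 5 genes, and 0 of them were among the closest 5, which were then DCBLD2 (0.95), REEP3 (0.94), SELENOI (0.91), SEMA3C (0.90) and an unnamed gene. For PDCD1LG2, SFRP1, SUSD6, LRP12 and JCAD kept a place among the closest 5 without it. Over the 20 polysome libraries, r with CD274 was 0.81, 0.55, 0.66, 0.19 and 0.80 for JUN, TSC22D1, CHST2, BCL10 and F3. Without the polysome library numbered 1 of unstimulated control cells it was 0.33, -0.29, 0.31, -0.37 and 0.67. Over those same polysome libraries the second 5 genes, from DCBLD2 on, had 0.30, 0.20, 0.70, 0.45 and 0.16.

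In the RefSeq gene order the ligands are direct neighbours, with INSL6, INSL4, RLN2, RLN1 and PLGRKT before CD274 and RIC1, ERMP1, KIAA2026, MLANA and RANBP6 after PDCD1LG2. The 4 insulin-like genes nearest PLGRKT and MLANA were too low to be tested. PLGRKT, a plasminogen receptor, differed with IL-13 by log2 0.02 ± 0.18 in input and -0.003 ± 0.18 in polysome RNA (SE, averaged over both lines). RIC1, part of a complex that activates a Golgi GTPase, stood at 0.36 ± 0.17 and 0.36 ± 0.18 (SE; edgeR adjusted p = 1 and 0.937). KIAA2026, ERMP1 and RANBP6 lay between -0.82 and 0.28 and were not called. RIC1 was the one neighbour of the 5 tested with an unadjusted p under 0.05 in these averages (0.0474 and 0.0483 by edgeR). RefSeq also lists the long noncoding gene INCR1 across both ligands, and whether counting used strand is not given in the sources used here, so reads from overlapping genes could not be told apart.

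Other B7-family ligands showed where the PD-1 ligands stand in these cells. VSIR (VISTA) had 23.8 to 47.55 TPM and CD276 (B7-H3) 18.4 to 26.0 TPM as group means, and ICOSLG, the ligand of ICOS, had 4.89 to 8.83 TPM. PDCD1LG2 spanned 3.18 to 7.645 TPM and CD274 1.18 to 4.28 TPM. With the pair left out, the ranges were 1.94 to 7.645 and 1.18 to 2.504 TPM, so the upper end of CD274 rested on replicate 1. NCR3LG1 (B7-H6) had 0.454 to 2.165 TPM. CD80 and CD86, the classical costimulators, and VTCN1 and HHLA2 had group means of at most 0.0249 TPM and too few counts to be tested, with at most 6 counts in any library. Per length, PDCD1LG2 and CD274 were thus lower than VSIR and CD276 in every group.

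**Figure D4:**
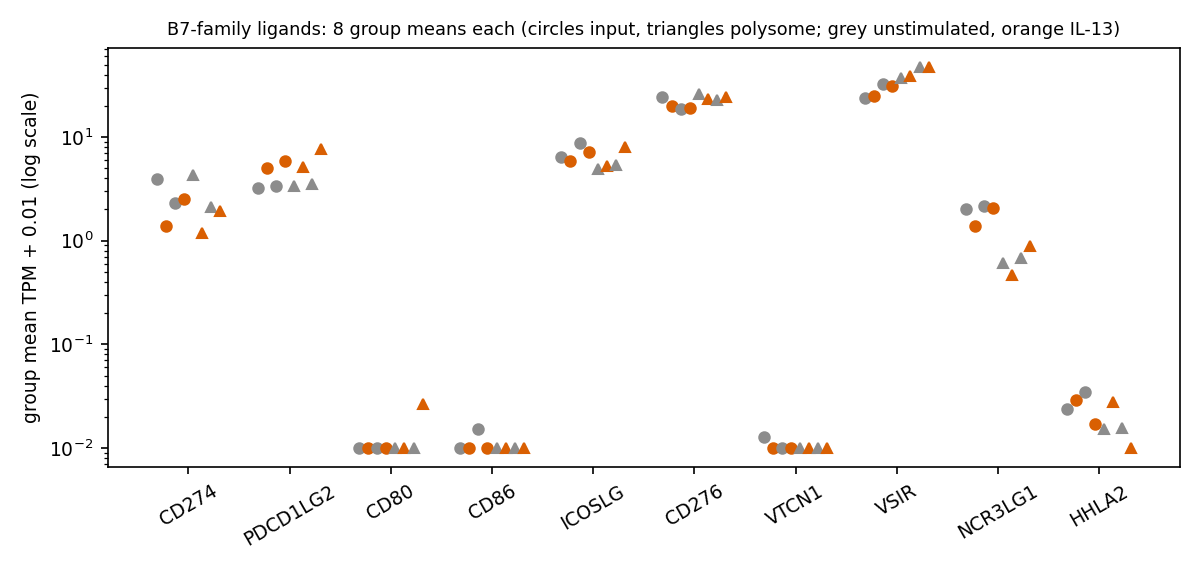
Group mean TPM (plus 0.01, log axis) of the PD-1 ligands and 8 other B7-family ligands, with 8 group means per gene (circles input, triangles polysome, grey unstimulated, orange IL-13). VSIR and CD276 lie above 18 TPM, PDCD1LG2 and CD274 between 1.18 and 7.645 TPM (the CD274 mean of 4.28 TPM rests on unstimulated control replicate 1), and CD80, CD86, VTCN1 and HHLA2 near 0.

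For the gene lists that follow, the background is 0.0777% to 0.209% of all genes called and 1.03% to 5.28% with an unadjusted p under 0.05 over the 6 IL-13 comparisons. Over the 4 knockdown comparisons it is 0% to 0.0896% called. A list with 0 calls is near that background, which is no result about its members. None of the 4 other B7 ligands tested was called for IL-13 in any of the 6 comparisons by edgeR or DESeq2, and 0 had an unadjusted p under 0.05 with either tool. Their median log2 fold change lay between -0.14 and 0.03, where the median of all genes lay between -0.02 and 0.00. They were also not called for the knockdown, with 1 unadjusted p under 0.05 in 4 comparisons, for NCR3LG1 in IL-13 polysome RNA (log2 0.77 ± 0.37, SE; edgeR adjusted p = 0.4845). NCR3LG1 was called lower in polysome than in input RNA in all 4 groups (log2 -1.22 to -1.59; largest edgeR adjusted p = 0.00711), and VSIR higher in unstimulated control cells (log2 0.91 ± 0.36, SE; edgeR adjusted p = 0.0406), in comparisons that called 38.5% to 40.2% of all genes.

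The receptor PDCD1 was at 0 counts in all 40 libraries, and of 5 receptors or partners of B7 ligands only RGMB had enough counts to be tested. RGMB, the alternative partner of PD-L2, was at 93.4 ± 14.4 CPM (SD, n = 5) unstimulated and 114 ± 28.3 CPM (SD, n = 5) with IL-13 in control input RNA. In the knockdown line it was at 106 ± 13.9 and 137 ± 21.2 CPM (SD, n = 5). Averaged over both lines its log2 fold change with IL-13 was 0.33 ± 0.14 in input and 0.41 ± 0.14 in polysome RNA (SE; edgeR adjusted p = 1 and 0.5325), so it was not called. Its unadjusted edgeR p was under 0.05 in both averages and in knockdown polysome RNA, and not in the other IL-13 comparisons. The shares of all genes there were 1.96% (averaged input), 5.28% (averaged polysome) and 3.21% (knockdown polysome).

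Among 18 genes of the IL-13 and IL-4 receptor, JAK and STAT pathway, 16 were tested and 2 were called higher in each of the 6 IL-13 comparisons, where 0.0777% to 0.209% of all genes were called in either direction. They were SOCS1 and CISH, inhibitors of cytokine signalling that STATs induce. SOCS1 rose by log2 2.69 ± 0.39 (SE) in control and 2.90 ± 0.40 (SE) in knockdown input RNA (edgeR adjusted p = 0.00011 and 2.995e-05), and CISH by 4.01 ± 0.25 and 3.90 ± 0.25 (SE; edgeR adjusted p = 4.893e-14 and 1.338e-13). The receptor chains IL4R and IL13RA1 stood at -0.33 ± 0.22 and -0.13 ± 0.18 (SE) in input averaged over both lines, and STAT6 at 0.03 ± 0.15 (SE), none called. The median of the list lay between -0.04 and 0.07, beside -0.02 to 0.00 for all genes.

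Of 23 genes from the interferon receptors to IRF1 and its targets, the route best known for CD274, 20 were tested. With IL-13, 0 were called in each of the 6 comparisons by edgeR and by DESeq2, and 0 or 1 had an unadjusted p under 0.05 with either, beside 1.03% to 5.28% of all genes with edgeR. These counts are near the background. IRF1 stood at log2 0.35 ± 0.17 in input and 0.17 ± 0.17 in polysome RNA (SE, averaged over both lines; edgeR adjusted p = 1 and 0.9999). IRF1 had 102 ± 9.05 CPM unstimulated and 125 ± 16.5 CPM with IL-13 in control input RNA (SD, n = 5). The median of the list lay between -0.23 and -0.00108.

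Another 16 transcription regulators known to act on CD274, such as MYC, HIF1A, RELA, JUN and YAP1, were all tested. With IL-13, edgeR and DESeq2 called 0 in each of the 6 comparisons. With an unadjusted p under 0.05, edgeR found 4 of the 16 in control input and 5 in control polysome RNA, beside 2.04% and 5.14% of all genes. Averaged over both lines there were 3 in input and 5 in polysome RNA, beside 1.96% and 5.28%. The knockdown line had 0 in both fractions, beside 1.03% and 3.21%. DESeq2 found between 0 and 3. The edgeR counts in control cells thus lie above the background share, and no count without the pair numbered 1 is given here. JUN stood at log2 -1.15 ± 0.50 (SE) in control and -0.09 ± 0.49 (SE) in knockdown input RNA, and its highest input level was in replicate 1 of the unstimulated control cells. For the knockdown edgeR called 0 of them, and DESeq2 called 1, FOS, lower in unstimulated polysome RNA. That comparison uses replicate 1 of the unstimulated control cells, where the immediate early gene EGR1 was high. No FOS value without that library is given here. The fits tried as alternatives, DESeq2 among them, called 0 to 89 genes in that comparison.

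PD-L1 protein is also governed after translation, by partners such as CMTM6, by ubiquitin ligases and by shedding proteases. Of 20 genes of this kind 19 were tested, and edgeR and DESeq2 called 0 for IL-13 in each of the 6 comparisons and 0 for the knockdown in each of 4. With an unadjusted p under 0.05 there were 0 for IL-13 and 0 or 1 for the knockdown by edgeR, and at most 1 and 2 by DESeq2. With 0.0777% to 0.209% of all genes called for IL-13 and 0% to 0.0896% for the knockdown, 0 calls are near the background. The median log2 fold change with IL-13 lay between 0.00 and 0.07.

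Markers were examined because PDCD1LG2 is best known from myeloid cells. Of 18 genes of immune and endothelial cells 4 were tested, and CD3D, MS4A1, CLEC9A and NKG7 were at 0 in all 40 libraries. PTPRC, found on nearly all leukocytes, had 1 count in 1 library. The summed level of the list ran from 17.0 to 47.2 CPM in unstimulated and 18.3 to 39.7 CPM in IL-13 control input RNA, and from 24.5 to 44.9 and 22.4 to 32.8 CPM in the knockdown line, so the ranges overlapped. In polysome RNA it ran from 14.9 to 61.5 and 8.36 to 50.5 CPM in control and from 14.7 to 56.7 and 13.0 to 61.5 CPM in knockdown cells. Nearly all of it was CD14 (median 14.4 CPM over the 40 libraries) and CD68 (median 12.4 CPM), and 0 of the 4 were called for IL-13 by edgeR or DESeq2 (unadjusted, 0 by edgeR and 1 by DESeq2 in control polysome RNA). Their median log2 fold change with IL-13 was -0.24 in input and -0.66 in polysome RNA averaged over both lines.

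Of 12 bronchial epithelial and BEAS-2B markers, KRT8, KRT18 and KRT17 had medians of 707.3, 729.6 and 426.5 CPM and VIM 1254 CPM, while KRT5, KRT14 and TP63 had medians of 0 and EPCAM and CDH1 of 0.474 and 0.278 CPM. edgeR called 0 of the 10 tested for IL-13 (2 or 3 with an unadjusted p under 0.05, beside 1.03% to 5.28% of all genes). DESeq2 called KRT18 and KRT8 higher in averaged input RNA. The fits tried as alternatives, DESeq2 among them, called 26 to 51 genes in that comparison. NKX2-1, a transcription factor of lung epithelium at 0 to 3.35 CPM, was called lower by edgeR in cells labelled knockdown in IL-13 polysome RNA (log2 -4.42 ± 0.94, SE; adjusted p = 0.0448), where 0.0896% of all genes were called. DESeq2 called NKX2-1 lower there and in both knockdown comparisons of input RNA. The alternative fits called 0 to 144 genes there, and 0 to 28 (unstimulated) and 0 to 55 (IL-13) in input RNA. In bulk RNA, fewer cells with a gene and less RNA per cell cannot be told apart.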

How the data were processed

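Frac-seq libraries of BEAS-2B cells were compared over 8 groups of 5. Per the file headers, the authors deposited estimated counts and TPM per gene for each library. Salmon, Trimmomatic, MultiQC and DESeq2 are named in the submitters' processing notes. The genome build, the annotation and the use of strand in counting are not given in the sources used here. The deposited TPM values held in the table sum to 82.3 to 85.9% of the full TPM scale per library. A symbol was found for 62246 gene identifiers and not for 17.

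Estimated counts were rounded to whole numbers, scaled by TMM and filtered by group, leaving 16735 of 62263 genes, which held 99.91% or more of every library's counts. The quasi-likelihood test of edgeR 4.0.16 (limma 3.58.1, R 4.3.3) was fitted to all 40 libraries with 1 mean per group and 32 residual degrees of freedom, and 20 comparisons were drawn from it. All tests were two-sided, the Benjamini-Hochberg adjustment ran over all genes of a comparison, and calls were made below an adjusted p of 0.05. The Wald test of DESeq2 1.42.0, other scalings, filters, sets of libraries and blocks, and exact permutation tests were alternatives. The scripts were tested on simulated data. No pair among 80 replicate pairs examined held near-identical counts (lowest chi-square per degree of freedom 16.2).

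CD274, PDCD1LG2, the gene lists and the libraries left out were chosen with earlier results of these data known. Named genes are both ligands, IGF2BP3, called list genes, B7-family ligands, PDCD1, IRF1, STAT6, IL4R, IL13RA1, the 5 genes with the highest r over input libraries, the annotation's neighbours, and CCN2, EGR1, CXCL8 and IL6. One further gene of this rule is not reported here. RGMB and the markers given with levels were named after their values were seen. The permutation tests within lines were also chosen after seeing the data. Promoter sequence is RefSeq's, of GRCh38.p14, which may not be the build the authors used.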

Additional observations from a re-analysis of the deposited data

Results flagged for a closer look

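Of 16 sets of 5 values (2 genes in 8 groups), 3 held a library far from the other 4, all in unstimulated control cells and all the library numbered 1. For independent, normally spread values chance alone gives about 1 such set in 20. These values were CPM without logs, and the flagged sets share 1 library number, so that rate need not hold here. CD274 stood at 35.7 CPM in input RNA, where the other 4 libraries lay between 3.2 and 8.16 CPM, so the gap took 0.847 of the whole range. In polysome RNA CD274 stood at 52.4 CPM against 3.55 to 6.04 CPM, a gap of 0.949 of the range. PDCD1LG2 stood at 19.2 CPM in polysome RNA against 3.88 to 4.87 CPM, a gap of 0.935 of the range. In input RNA the same number held 9.53 CPM of PDCD1LG2, the highest of its group but within reach of the others.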

How the results depend on the processing

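Of 490 values of CD274 under alternatives, 471 kept their direction and side of the threshold, and of 490 of PDCD1LG2 441 did. The cause of the changes was not tested.

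Without the pair numbered 1, PDCD1LG2 was called for IL-13 in control polysome RNA (log2 1.365) and averaged over both lines (0.92 input, 1.23 polysome). Signs turned for CD274 in the unstimulated knockdown effect (0.39 input, 0.51 polysome), polysome against input in unstimulated control cells (-0.18), the shift of the IL-13 effect in control cells (0.05067) and of the knockdown effect in unstimulated cells (0.12). They turned for PDCD1LG2 in the line difference in polysome RNA (-0.27), the unstimulated polysome knockdown effect (0.70), polysome against input (-0.23) and the same shifts (0.33 and 0.38). Permutation within lines, a test not adjusted over all genes, passed for PDCD1LG2 (0.70 and 0.86, or 0.78 and 1.05 without the pair).

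Values near 0 also turned. CD274 in polysome against input RNA of unstimulated knockdown cells was 0.008832 by DESeq2, 0.007958 with its size factors, 0.07963 with a length offset and 0.03754 with only the libraries compared. The PDCD1LG2 knockdown effect in unstimulated polysome RNA was 0.0008294 by DESeq2, 0.0002777 with its size factors, and 0.21 and 0.26 by permutation with pseudocounts of 1 and 0.1.

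Between groups compared with each other, same-numbered libraries did not correlate above 0.1 in every pair, so the numbers were not used as a pairing. Their median correlation was still 0.46 between input and polysome RNA of unstimulated control cells. It was 0.40 between unstimulated and IL-13 knockdown input RNA. The other groups compared had medians from -0.3505 to 0.1836, so sharing of cultures by number was not settled. One group pair that is not compared, IL-13 control input and unstimulated control polysome, had all correlations above 0.1 (lowest 0.107). With the replicate number as a block, averaged IL-13 effects on PDCD1LG2 were 0.8047 and 0.9325, its unstimulated polysome knockdown effect turned to 0.09138, and genes called for the knockdown in unstimulated cells went from 2 to 0 in input and from 5 to 3 in polysome RNA. Blocking on input and polysome libraries of one number turned its shifts to 0.03154 (IL-13, control) and 0.10 (knockdown, unstimulated). The block changed no call of either ligand.

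Leaving out 1 library at a time, CD274 ranged from -0.1048 to 0.2043 for IL-13 in knockdown input, -0.963 to 0.3869 and -1.343 to 0.5116 for the unstimulated knockdown effect (input, polysome), -0.2602 to 0.04085, -1.295 to 1.423 and -0.2387 to 0.1689 for polysome against input (IL-13 control, unstimulated control, unstimulated knockdown), and -1.556 to 1.162 and -1.482 to 1.236 for the shifts above. PDCD1LG2 ranged from 0.785 to 1.232 for averaged IL-13 in polysome RNA, where it was called without unstimulated control polysome replicate 1 (edgeR adjusted p = 0.00103). Its line difference ranged from -0.2408 to 0.1337 in input and -0.2659 to 0.6299 in polysome RNA, and its knockdown effect from -0.07342 to 0.2243 (IL-13 input), -0.05487 to 0.3194 (unstimulated input) and -0.1966 to 0.6986 (unstimulated polysome). Polysome against input ranged from -0.05545 to 0.2535 (IL-13 control) and -0.4553 to 0.5007 (unstimulated control), and the shifts from -0.4039 to 0.5518 and -0.3504 to 0.6055.

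Among the 5 genes most like each ligand, 0 were shared for CD274 over polysome libraries and 0 without the pair, and 3 for PDCD1LG2 over polysome libraries. Counts of genes called for IL-13 ran from 8 to 33 and 11 to 22 in input (control, knockdown), 3 to 61 and 8 to 36 in polysome RNA, and 26 to 51 and 21 to 82 averaged. For the line difference they ran from 0 to 6 and 0 to 25, for the knockdown from 0 to 28, 0 to 55, 0 to 89 and 0 to 144 (unstimulated and IL-13 input, then polysome), and for shifts from 0 to 20, 0 to 5, 0 to 10 and 0 to 10.

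In depth, 3 polysome libraries of the knockdown line held under 5000000 counts, and the lowest held 9 counts of CD274 and 13 of PDCD1LG2.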
